A study of Homo sapiens with 4 samples.

Results

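The genes described here are 38 genes of protein folding in the endoplasmic reticulum (ER) and of the unfolded protein response, out of 16504 gene symbols in the deposited expression table. They were listed by name, as chaperones, disulfide isomerases, degradation factors, stress sensors and translocon subunits, with no threshold on their values, although earlier results of these data were known when the list was made. All 38 were found in the table, and 37 reached the mean of 1 FPKM that was required for a test, as did 10968 genes in all. FPKM counts sequenced fragments per kilobase of transcript, scaled to the mapped fragments of the library, so levels can be compared between genes. DERL3, a derlin of ER-associated degradation, was the member below that level, listed at 0.538 and 0.476 FPKM in controls 1 and 2 and at 0.523 and 0.564 FPKM in knockdowns 1 and 2, the order in which library values are given throughout.

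The study asked what the transcription factor CEBPG does in myeloid leukemia, and the libraries compared the transcriptome with and without it. RNA-seq was performed on 4 libraries of cells labelled NB4, an acute promyelocytic leukemia line. Of these, 2 were controls with CEBPG present, made with the control short hairpin RNA (shRNA) NC, and 2 carried the CEBPG shRNA labelled CEBPG3, taken here to be the third hairpin against this gene. The CEBPG hairpins were built in the lentiviral vector pLKO.1-puro and stable lines were selected in puromycin, while the vector of the control hairpin was not given in the sources used here. The labels did not say whether the 2 libraries of a group came from separate cultures, so p-values measure only the spread between these libraries, which may be technical.

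Proteins that enter the ER through the Sec61 channel are folded by chaperones such as HSPA5 (BiP), are checked through their sugars by the lectins CALR and CANX, and receive disulfide bonds from the PDI family. Chains that do not fold are returned to the cytosol by a membrane complex built around the ubiquitin ligase SYVN1 and its adaptor SEL1L and are extracted by the ATPase VCP, a process called ER-associated degradation. When unfolded chains accumulate, the sensors ERN1 (IRE1) and ATF6 and the kinase EIF2AK3 (PERK) raise transcription of this machinery, in part through the factors XBP1, ATF6 and ATF4. CEBPG belongs to the bZIP family, as do ATF4, ATF6 and XBP1, and is a known dimer partner of ATF4.

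CEBPG itself (19:33373685-33382686, plus strand, GRCh38) had 17.1 and 18.1 FPKM as control values and 6.91 and 7.96 FPKM as knockdown values. Its mean in the knockdown was 42.2% of the control, a log2 fold change of -1.14 (SE 0.0821, limma adjusted p = 0.000836), and the groups matched their labels. The markers went against the labelled cell type, and the libraries may not be of NB4 cells. All 11 erythroid markers examined, globins, ALAS2 and GATA1 among them, were at 10 FPKM or more in every library, with a summed level of 7981 to 8446 FPKM in the controls and 8892 to 9456 FPKM in the knockdown. The list did not move 1 way, since the fetal globins HBG1 and HBG2 were called higher and HBZ (56.2% of the control) and ALAS2 (58.2%) lower, and 7 were not called. The 10 promyelocytic and myeloid markers summed to 51.4 to 51.6 FPKM in the controls and 55.7 to 56.4 FPKM in the knockdown, with 5 or 6 of them below 1 FPKM in each library and none at 0. Granule proteins that define promyelocytes were near 0, PRTN3 at 0.0897 to 0.188 FPKM and AZU1 at 0.370 to 0.570 FPKM. Of the others, LYZ (15.001 to 20.1 FPKM) was called lower and CFD (7.63 to 10.98 FPKM) higher, and SPI1 (15.2 to 17.2 FPKM) and CD33 (4.31 to 9.77 FPKM) were not called. The cells are therefore called the labelled NB4 libraries, and in bulk RNA fewer cells of a type and less RNA per cell cannot be told apart. The part of the marker shifts in the results below was not tested.

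Some of these genes carry a known stress element upstream of their start sites. The ER stress response element (ERSE), CCAAT then any 9 bases then CCACG, is known as the element through which ATF6 and XBP1 act with the CCAAT factor NF-Y, and ERSE-II, ATTGG then any 1 base then CCACG, is a compact relative of it. Both were searched on both strands in RefSeq promoters (GRCh38.p14, 250 bases before to 50 after each start), of which 35 of the 38 genes had at least 1. PDIA3, DERL1 and DERL3 were not matched. An ERSE was found in 7 genes, or 20.0% of the 35, against 0.0916% of all 27305 genes with a promoter there, and an ERSE-II in 3 others, or 8.57%, against 0.0696%. A gene counts here if any of its promoters holds a match, and 25 of the 35 genes held neither element, SEC62, DERL2, SYVN1 and CREB3L2 among them. The matches are shown with 5 bases on either side, 5′ to 3′ on the strand that carries the motif, and capitals mark its fixed bases. The first set is from the 4 genes of the search that also passed the test between knockdown and control, with the motif base farthest from the start site 66 bases upstream of it in HSPA5, 225 in CALR, 52 in XBP1 and 188 in SDF2L1:
HSPA5 (ERSE, chr9:125241386-125241414, minus strand): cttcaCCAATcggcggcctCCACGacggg
CALR (ERSE, chr19:12938379-12938407, minus strand): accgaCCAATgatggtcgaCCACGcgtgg
XBP1 (ERSE, chr22:28800598-28800626, minus strand): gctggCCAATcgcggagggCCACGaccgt
SDF2L1 (ERSE-II, chr22:21642109-21642129, minus strand): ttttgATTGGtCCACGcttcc

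The second set is from the other 6 genes, which carried the same elements and did not pass the test. HSP90B1 and HYOU1 each held 2 matches. The upstream ERSE-II of HYOU1 overlaps a match, on the other strand, to a further element described with SEC62:
HSP90B1 (ERSE, chr12:103930211-103930239, plus strand): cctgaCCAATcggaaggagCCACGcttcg
HSP90B1 (ERSE, chr12:103930316-103930344, minus strand): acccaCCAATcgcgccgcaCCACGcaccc
PDIA6 (ERSE, chr2:10812848-10812876, minus strand): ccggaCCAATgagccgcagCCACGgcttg
CRELD2 (ERSE, chr22:49918549-49918577, minus strand): atggcCCAATccgagttcgCCACGagagg
CANX (ERSE, chr5:179698773-179698801, plus strand): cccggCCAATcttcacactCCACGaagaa
HERPUD1 (ERSE-II, chr16:56932020-56932040, plus strand): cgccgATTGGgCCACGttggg
HYOU1 (ERSE-II, chr11:119057375-119057395, plus strand): ctgggATTGGaCCACGtcacg
HYOU1 (ERSE-II, chr11:119057269-119057289, plus strand): tactcATTGGaCCACGtccca

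Across the 37 tested genes, 5 rose and 3 fell in the knockdown at an adjusted p under 0.05, and 29 were not called. The genes that rose were the chaperone HSPA5, its cochaperone partner SDF2L1, the ubiquitin ligase SYVN1 and the transcription factors XBP1 and CREB3L2. Those that fell were the lectin chaperone CALR, the derlin DERL2 and the translocon partner SEC62. The 8 called genes were 21.6% of the 37, beside 20.9% of all genes tested, so the share of called members was near the background and is not a result about these genes. In each direction the background was 10.9% of genes called higher and 9.99% called lower.

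The changes were small. The log2 fold changes, which are differences on the log2(FPKM + 1) scale and understate the change of low genes, ran from -0.54 to 0.66 with a median of 0.06, beside 0.02 over all genes tested. The median of the library values varied with an SD of 0.0396 within groups. An absolute value over 0.5 was reached by 3 genes and 24 stayed under 0.2. None passed an absolute log2 fold change over 1 with an unadjusted limma p under 0.05, the reading used here of the threshold of the study, which 0.602% of all genes passed. The study applied its threshold in DESeq2 and reported many more genes past it. This share therefore cannot be set beside its count. The sign was positive in 25 of the 37 genes (67.6%, beside 52.7% of all genes tested). After the libraries were rescaled by the median ratio or to 1 sum of FPKM it was positive in 22 of 37. The median over all genes tested was then -0.00098 and -0.0042. In 18 genes (48.6%) both knockdown libraries lay above both controls, beside 34.3% of all genes tested, in 9 genes (24.3%) both lay below, beside 30.5%, and in 10 genes the groups overlapped. The 38 genes together held 0.697% and 0.689% of all FPKM in the controls and 0.707% and 0.702% in the knockdown.

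**Figure D1:**
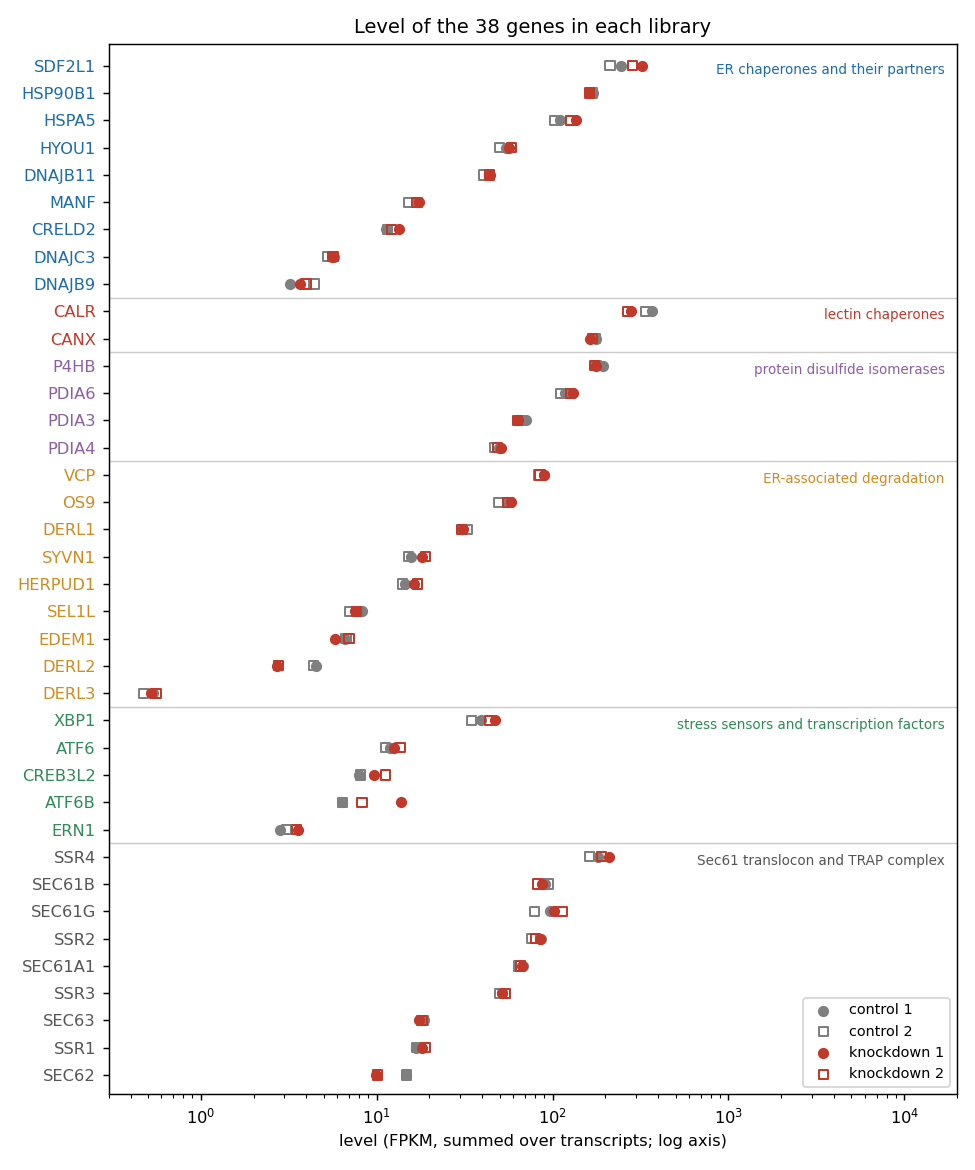
Level of each of the 38 genes in each of the 4 libraries, in FPKM on a log axis, with genes grouped by role and sorted by level within a role. The genes spread from DERL3 at about 0.5 FPKM to CALR at 265 to 366 FPKM, and in most genes the control (grey) and knockdown (red) points lie on or beside each other.

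The chaperones that bind exposed stretches of unfolded chains, and their cochaperones and cofactors, were 9 genes, of which 2 rose, none fell and 7 were not called, with a median log2 fold change of 0.10. HSPA5 (9:125234853-125241382, minus strand), the main Hsp70 of the ER and the classical readout of the unfolded protein response, was at 111 and 103 FPKM in the controls and at 136 and 127 FPKM in the knockdown. Both knockdown libraries lay above both controls, and the mean of 131 ± 6.24 FPKM (SD, n = 2) was 123% of the control mean of 107 ± 5.55 FPKM. Its log2 fold change was 0.30 (SE 0.0659, 95% interval 0.14 to 0.45, limma adjusted p = 0.0234).

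SDF2L1 (22:21642302-21644299, plus strand), a luminal protein that works with HSPA5 and the ER J-proteins, was the most abundant of these chaperones at 244 and 212 FPKM in the controls and 324 and 285 FPKM in the knockdown. The groups did not overlap, and the mean went from 228 ± 22.7 to 305 ± 27.1 FPKM (SD, n = 2), 133% of the control. The log2 fold change was 0.41 (SE 0.0915, 95% interval 0.20 to 0.63, limma adjusted p = 0.0229).

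HSP90B1 (GRP94), the Hsp90 of the ER, stood at 169 and 168 FPKM in the controls and at 162 in both knockdown libraries. Its knockdown values were thus the lower ones, with a log2 fold change of -0.06 (95% interval -0.19 to 0.07, limma adjusted p = 0.44). HYOU1 (GRP170), a nucleotide exchange factor of HSPA5, was at 54.4 and 50.1 FPKM against 56.5 and 58.2 FPKM, a log2 fold change of 0.13 (95% interval -0.02 to 0.29). The J-proteins, which deliver clients to HSPA5 and stimulate its ATPase, were DNAJB11 (0.06), DNAJC3 (0.03) and DNAJB9 (0.01), with values of log2 fold change that missed the test. DNAJB9, a classical XBP1 target, had control values of 3.23 and 4.42 FPKM that enclosed both knockdown values of 3.67 and 3.98 FPKM, and its 95% interval was the widest of the chaperones at -0.29 to 0.31. The secreted or luminal stress proteins MANF and CRELD2 were higher in both knockdown libraries, with log2 fold changes of 0.10 and 0.15 and limma adjusted p = 0.35 and 0.182.

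The 2 lectin chaperones, which bind the trimmed sugars of new glycoproteins, both had both knockdown libraries below both controls, and 1 of them was called. Non-overlap in that direction was found in 30.5% of all genes tested. CALR (calreticulin, 19:12938578-12944489, plus strand), the soluble one, was the most abundant of all 38 genes in the controls and was at 366 and 339 FPKM in the controls and at 278 and 265 FPKM in the knockdown. Both knockdown libraries lay below both controls. The mean fell from 352 ± 19.3 to 272 ± 8.69 FPKM (SD, n = 2), 77.1% of the control, with a log2 fold change of -0.37 (SE 0.065, 95% interval -0.53 to -0.22, limma adjusted p = 0.0112).

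CANX (calnexin), the membrane-bound homolog, was at 176 and 175 FPKM in the controls and at 164 and 169 FPKM in the knockdown, a log2 fold change of -0.08 (95% interval -0.21 to 0.05, limma adjusted p = 0.355). The ratio of CALR to CANX within a library does not depend on how libraries are scaled, and it was 2.08 and 1.93 in the controls and 1.69 and 1.57 in the knockdown. This ratio was lower in both knockdown libraries, by 0.30 on the log2 scale (difference -0.30, exact 2-sided permutation p = 0.333, the smallest that 2 libraries against 2 allow). CALR and HSPA5, both abundant luminal chaperones with an ERSE upstream, were called in opposite directions. The ratio of HSPA5 to CALR was 0.302 and 0.303 in the controls and 0.488 and 0.478 in the knockdown, a log2 difference of 0.67 (exact 2-sided permutation p = 0.333). These and the other pairs of genes set in ratios were picked after their values were seen.

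The 4 protein disulfide isomerases were not called. PDIA6, which acts on HSPA5 clients and on ERN1, was the nearest to the threshold, at 118 and 111 FPKM in the controls and 130.2 and 126 FPKM in the knockdown. Its log2 fold change was 0.16 (95% interval 0.02 to 0.30, limma adjusted p = 0.103). PDIA3 (ERp57), the isomerase that works with CALR and CANX on glycoproteins, was at 70.5 and 67.2 FPKM against 63.5 and 63.2 FPKM, so that its knockdown values were lower in both libraries, with a log2 fold change of -0.12 (95% interval -0.25 to 0.02). P4HB (PDI itself), at 174 to 193 FPKM, and PDIA4 (ERp72), at 47.0 to 50.9 FPKM, gave log2 fold changes of -0.08 and 0.04.

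Of the 9 genes of ER-associated degradation, 8 were tested, of which 1 rose, 1 fell and 6 were not called, with a median log2 fold change of 0.0044. SYVN1 (HRD1, 11:65121780-65134532, minus strand), the ubiquitin ligase of the retrotranslocation channel, was at 15.6 and 15.2 FPKM in the controls and at 18.1 and 18.9 FPKM in the knockdown. The groups did not overlap, and the knockdown mean was 120% of the control, a log2 fold change of 0.25 (SE 0.0629, 95% interval 0.10 to 0.40, limma adjusted p = 0.0342). Exons of SYVN1 overlap exons of the expressed genes FAU and MRPL49, and reads from these cannot be told apart by position. SEL1L, the adaptor that holds SYVN1 in its complex, had knockdown values of 7.51 and 7.72 FPKM that lay between the control values of 8.32 and 7.002 FPKM.

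DERL2 (17:5471254-5486811, minus strand), a derlin that forms part of the exit channel, was at 4.55 and 4.40 FPKM in the controls and at 2.73 and 2.78 FPKM in the knockdown. Its knockdown mean was 61.5% of the control, the largest fall among the 37 genes, with a log2 fold change of -0.54 (SE 0.0827, 95% interval -0.74 to -0.35, limma adjusted p = 0.00685). The table divided DERL2 into 5 transcripts, and the most abundant, NM_016041 with 71.7% of the FPKM of the gene, went from 3.48 and 3.36 FPKM to 1.59 and 1.94 FPKM. Exons of DERL2 overlap exons of MIS12 on the other strand, and whether reads were counted by strand was not given in the sources used here. DERL1, the second tested derlin, was at 30.1 and 32.7 FPKM against 30.9 and 30.4 FPKM, a log2 fold change of -0.03 (95% interval -0.19 to 0.12). The ratio of DERL2 to DERL1 was 0.151 and 0.135 in the controls and 0.0883 and 0.0916 in the knockdown, a log2 difference of -0.67 (exact 2-sided permutation p = 0.333).

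HERPUD1, a stress-induced scaffold of the SYVN1 complex, was higher in both knockdown libraries at 16.2 and 17.2 FPKM against 14.5 and 14.0 FPKM. It was 117% of the control but not called, with a log2 fold change of 0.21 (95% interval 0.06 to 0.37, limma adjusted p = 0.0593). Its main transcript NM_014685, with 91.8% of the FPKM of the gene, had overlapping groups at 13.8 and 14.00 FPKM against 13.9 and 15.1 FPKM, and a log2 fold change of 0.06 (limma adjusted p = 0.705). The difference of the sum thus came largely from the minor transcript NM_001010989, which was listed at 0.725 and 0 FPKM in the controls and at 2.30 and 2.06 FPKM in the knockdown. OS9, a lectin that hands misfolded glycoproteins to SEL1L, had a log2 fold change of 0.12 (95% interval -0.05 to 0.29). EDEM1, which trims the mannoses that mark such proteins, and VCP had control and knockdown values that overlapped, with log2 fold changes of -0.05 and 0.01.

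The stress sensors and transcription factors were the role in which all 5 genes had both knockdown libraries above both controls. Non-overlap in that direction was found in 34.3% of all genes tested, and the role was singled out after its values were seen. XBP1 and CREB3L2 rose (2 of 5, beside 10.9% of all genes), the other 3 were not called, and the median log2 fold change was 0.29. XBP1 (22:28794555-28800597, minus strand), the transcription factor whose message is spliced by ERN1, was at 39.2 and 34.7 FPKM in the controls and at 46.9 and 43.96 FPKM in the knockdown. The mean went from 36.9 ± 3.18 to 45.4 ± 2.10 FPKM (SD, n = 2), 123% of the control, a log2 fold change of 0.29 (SE 0.0761, 95% interval 0.11 to 0.48, limma adjusted p = 0.037). All of this FPKM stood under NM_005080, the RefSeq entry of the unspliced message. Whether reads of the spliced message were counted there was not given in the sources used here, so the values do not tell the forms apart.

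CREB3L2 (7:137874979-138002086, minus strand), a membrane-bound bZIP factor that is cut and released in the Golgi like ATF6, was at 7.97 and 8.08 FPKM in the controls and at 9.70 and 11.2 FPKM in the knockdown. The knockdown mean of 10.5 ± 1.07 FPKM (SD, n = 2) was 130% of the control mean of 8.02 ± 0.0767 FPKM, with a log2 fold change of 0.34 (SE 0.0832, 95% interval 0.14 to 0.54, limma adjusted p = 0.031). ATF6 was at 11.9 and 11.2 FPKM against 12.5 and 13.6 FPKM, a log2 fold change of 0.16 (95% interval -0.01 to 0.33, limma adjusted p = 0.151). ERN1, the kinase and ribonuclease that splices XBP1, was at 2.82 and 3.06 FPKM against 3.57 and 3.51 FPKM, a log2 fold change of 0.20 (limma adjusted p = 0.142).

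ATF6B, the paralog of ATF6, had the largest log2 fold change of the 37 genes, 0.66, and was not called. It was at 6.39 and 6.41 FPKM in the controls, at 13.8 FPKM in knockdown 1 and at 8.27 FPKM in knockdown 2. The size of the difference rested on knockdown 1, since the log2 fold change was 0.33 without knockdown 1 and 1.00 without knockdown 2, where it was called (limma adjusted p = 0.00402). It was also called with each library scaled to 1 sum of FPKM (limma adjusted p = 0.0419). Its 95% interval over the 4 libraries ran from 0.20 to 1.12 (limma adjusted p = 0.0534).

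**Figure D2:**
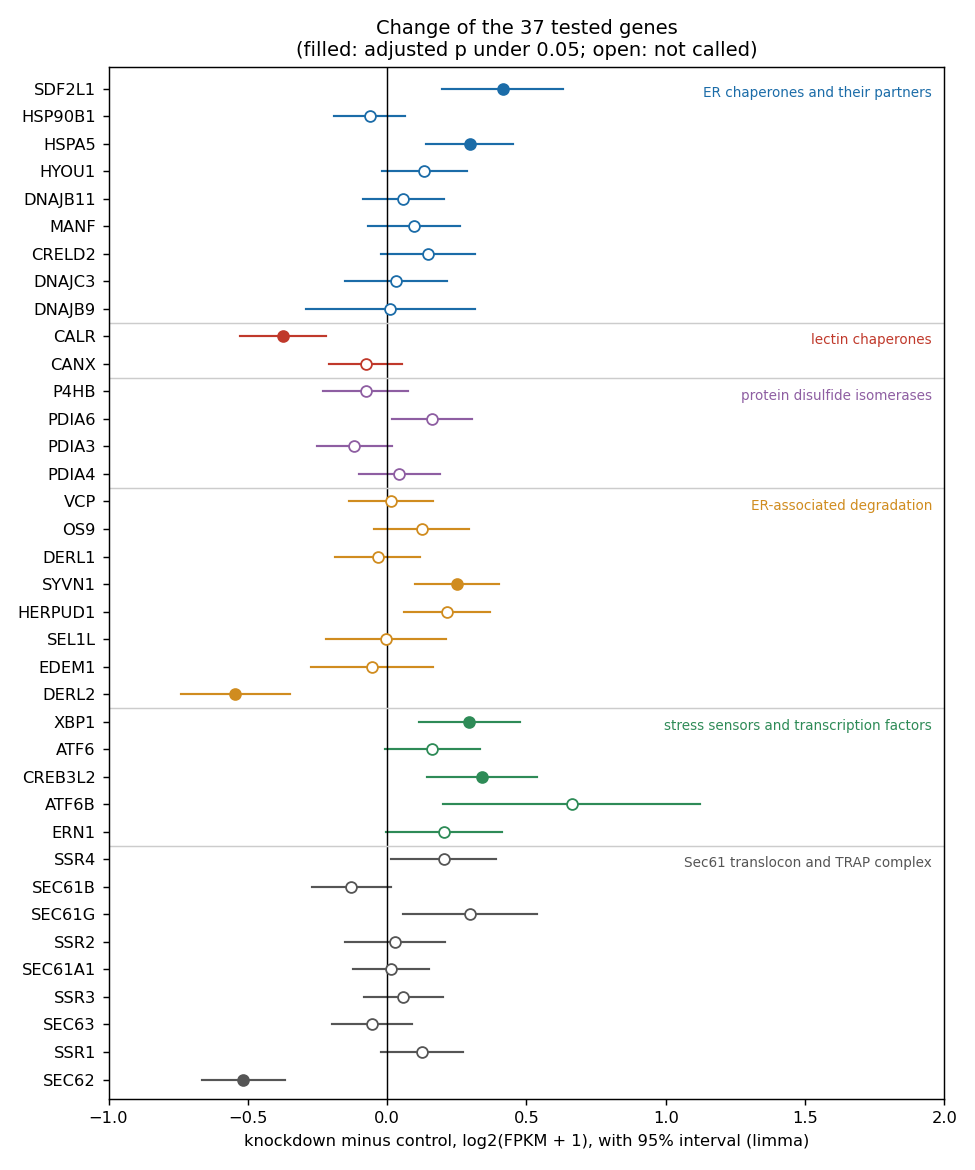
Knockdown minus control difference on the log2(FPKM + 1) scale for the 37 tested genes, with the 95% interval from limma, filled where the adjusted p was under 0.05. The 5 filled points to the right are SDF2L1, HSPA5, SYVN1, XBP1 and CREB3L2, the 3 to the left are CALR, DERL2 and SEC62, and ATF6B is the open point with the widest interval.

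Of the 9 genes of the Sec61 channel and its partners, 1 fell, none rose and 8 were not called, with a median log2 fold change of 0.03. SEC62 (3:169966635-169998373, plus strand), which helps short and slow substrates enter the channel after translation and also serves as a receptor for the removal of excess ER, was at 14.8 and 14.7 FPKM in the controls and at 9.90 and 10.1 FPKM in the knockdown. Its knockdown mean was 67.9% of the control, and its log2 fold change of -0.52 (SE 0.0627, 95% interval -0.67 to -0.37) had the lowest adjusted p of the 37 genes (limma adjusted p = 0.00363). SEC63, which binds SEC62 and brings HSPA5 to the channel, was at 18.6 and 18.4 FPKM against 17.4 and 18.1 FPKM, a log2 fold change of -0.05 (95% interval -0.20 to 0.09). The ratio of SEC62 to SEC63 was 0.794 and 0.802 in the controls and 0.568 and 0.559 in the knockdown, a log2 difference of -0.50 (exact 2-sided permutation p = 0.333).

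SEC62 held no ERSE, but it held a match to the unfolded protein response element TGACGTGG (UPRE), which XBP1 and ATF6 are known to bind. The match was also found in HYOU1, SSR3, SSR4 and VCP, which makes 14.3% of the 35 genes, beside 0.927% of all genes with a promoter. In SEC62 the base of the match farthest from the RefSeq start site lies 17 bases upstream of it:
SEC62 (UPRE, chr3:169966785-169966802, minus strand): ccctcTGACGTGGagcga

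The channel itself consists of SEC61A1, SEC61B and SEC61G. SEC61A1, the pore subunit, was at 67.7 and 64.5 FPKM against 67.3 and 66.1 FPKM, a log2 fold change of 0.01 (95% interval -0.12 to 0.15). SEC61B had lower values in both knockdown libraries, 86.7 and 82.1 FPKM against 90.3 and 94.3 FPKM, and SEC61G higher ones, 103 and 113 FPKM against 96.7 and 79.1 FPKM. Neither was called (limma adjusted p = 0.171 and 0.0801), and the interval of SEC61G reached from 0.06 to 0.54. With each library left out in turn SEC61G ran from 0.16 (without control 2) to 0.44 (without control 1, where it was called, limma adjusted p = 0.0134). The table split SEC61G into NM_014302, at 84.7 and 69.1 FPKM against 94.3 and 107 FPKM, and NM_001012456, at 11.9 and 10.03 FPKM against 8.17 and 6.68 FPKM.

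The TRAP complex, which sits beside the channel and helps particular signal sequences to insert, was represented by SSR1, SSR2, SSR3 and SSR4. SSR4 was the highest of these at 183 and 163 FPKM in the controls and 208 and 189 FPKM in the knockdown, with a log2 fold change of 0.20 (95% interval 0.01 to 0.39, limma adjusted p = 0.113). It was 0.12 without control 2, 0.13 without knockdown 1 and 0.28 without control 1, where it was called (limma adjusted p = 0.0472). SSR1, SSR2 and SSR3 had log2 fold changes of 0.13, 0.03 and 0.06. The groups overlapped in SSR2 and SSR3.

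The intervals of the genes not called measure only the spread between these libraries, which may be technical. They are on the log2(FPKM + 1) scale, which understates the change of low genes. Of the 29 genes not called, 27 had a 95% interval that stayed inside a log2 fold change of -0.5 to 0.5, and those of ATF6B and SEC61G reached past it. The read depth behind the FPKM values was unknown, so no counting error could be given. Exons of 9 of the 38 genes overlapped exons of another expressed gene. At the low end, 6 tested genes stayed under 10 FPKM in every library (DNAJB9, DNAJC3, SEL1L, EDEM1, DERL2 and ERN1), while 8 exceeded 100 FPKM in every library (SDF2L1, HSP90B1, HSPA5, CALR, CANX, P4HB, PDIA6 and SSR4).

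**Figure D3:**
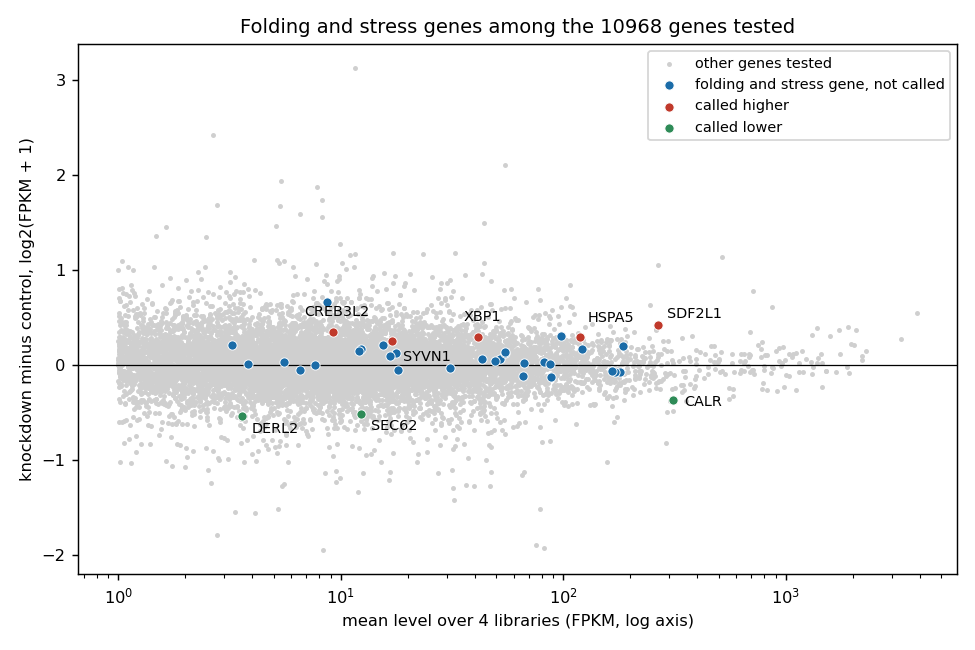
Difference on the log2(FPKM + 1) scale against mean level in FPKM (log axis) for all 10968 genes tested, in grey, with the 37 folding and stress genes in colour. The called genes HSPA5, SDF2L1, XBP1, SYVN1 and CREB3L2 lie above 0 and CALR, DERL2 and SEC62 below it, all within the range of the grey points, and the median over the 37 genes was 0.06.

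Not all calls rested equally on the 4 libraries. With each library left out in turn, SEC62 and DERL2 remained called in all 4 fits, with log2 fold changes of -0.53 to -0.50 and -0.56 to -0.52 (limma adjusted p = 0.0101 to 0.026 and 0.0228 to 0.0377). HSPA5, SDF2L1 and XBP1 kept their direction but were called only without control 1, with log2 fold changes of 0.24 to 0.35, 0.31 to 0.52 and 0.21 to 0.38. CREB3L2 was called only without knockdown 1 (0.25 to 0.44), SYVN1 in none of the 4 (0.22 to 0.28), and CALR without either control but not without knockdown 1 or knockdown 2 (-0.43 to -0.32). In these fits the lone library of a group is assumed to vary as much as the other group does. Without control 2, none of the 37 genes was called higher by limma, with 7 at an unadjusted p under 0.05, and without either knockdown library 1 was.

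**Figure D4:**
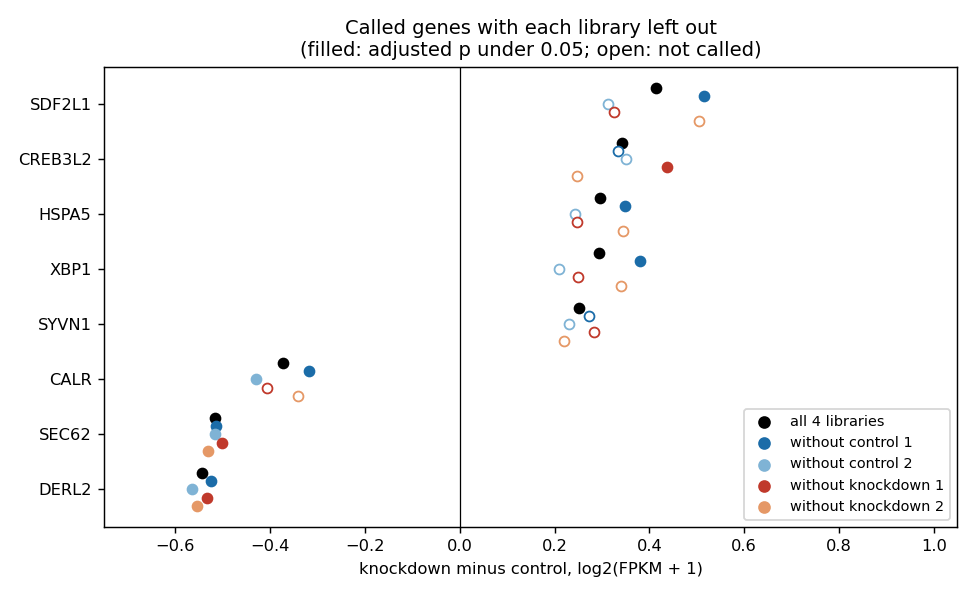
Knockdown minus control difference on the log2(FPKM + 1) scale of the 8 called genes, over all 4 libraries (black) and with each library left out in turn (colours), filled where the adjusted p was under 0.05. SEC62 and DERL2 stay filled in every fit at -0.50 to -0.53 and -0.52 to -0.56, and SYVN1 is open in all 4 leave-one-out fits.

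At the level of transcripts, the 38 genes had 70 entries, 21 genes with 1 entry and 17 with more, at most 7 for OS9. Of the 50 entries above 1 FPKM on average, none was called by limma (0 at the adjusted threshold, 12 at an unadjusted p under 0.05), in a background where 0.158% of all tested transcripts were called. Where a gene had several entries the division between them varied between libraries of 1 group. NM_001130991 of HYOU1 was at 10.9 and 8.01 FPKM in the controls and at 12.7 FPKM in knockdown 1 but 26.4 FPKM in knockdown 2, while NM_006389 of the same gene was at 43.5, 42.1, 43.8 and 31.8 FPKM. SYVN1 was divided about equally between NM_172230, at 9.38 and 6.19 FPKM in the controls and 9.41 and 8.76 FPKM in the knockdown, and NM_032431, at 6.27 and 8.98 FPKM against 8.68 and 10.2 FPKM. In SYVN1 the controls differed more in each transcript than in the sum, which was 15.6 and 15.2 FPKM.

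Set beside the promoter matches, the 10 genes with an ERSE or ERSE-II had 3 that rose (HSPA5, SDF2L1 and XBP1), 1 that fell (CALR) and 6 not called, with a median log2 fold change of 0.15. The 25 with a promoter and no such match had 2 that rose, 2 that fell and 21 not called, with a median of 0.04. Called in either direction were thus 40.0% and 16.0%, beside 20.9% of all genes tested, whose median was 0.02. Of the 10 genes with an element, 7 had both knockdown libraries above both controls and 3 (CALR, CANX and HSP90B1) below. Over all genes tested, 34.3% lay above and 30.5% below. Levels were not matched between the genes with and without an element, and with a filter of 5 FPKM 2210 of 7609 genes were called. The difference between the genes with and without an element was not tested. The composite element TGATGNAA, which a C/EBP protein and ATF4 can bind as a dimer, was found on either strand in CREB3L2 and HERPUD1, 5.71% of the 35 genes, beside 4.46% of all genes with a promoter. A match says only that these letters are present.

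The wider pathway was read from 4 further lists of 87 genes in all, of which 86 were in the table and 83 were tested. Of these, 11 rose and 9 fell, 24.1% called beside the 20.9% of all genes, with a median log2 fold change of 0.08. Among 24 other folding and glycan-trimming genes, 3 rose and 2 fell. QSOX1, a sulfhydryl oxidase, was at 18.7 and 16.2 FPKM in the controls and 23.6 and 25.1 FPKM in the knockdown (log2 fold change 0.46, limma adjusted p = 0.0116), and the isomerase PDIA5 changed by 0.27 (adjusted p = 0.0327). ERP29, a PDI-related chaperone without the redox motif, fell from 93.8 and 92.2 FPKM to 70.0 and 63.1 FPKM (-0.48, adjusted p = 0.0055), and the cargo receptor LMAN1 changed by -0.28 (adjusted p = 0.0175).

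Of 22 other degradation genes, 2 rose and 3 fell. HERPUD2, the homolog of HERPUD1, and TMUB1, a membrane protein with a ubiquitin-like domain, rose, with log2 fold changes of 0.34 and 0.25 (limma adjusted p = 0.0189 and 0.0359). EDEM3, a mannosidase related to EDEM1, fell from 13.0 and 13.9 FPKM to 8.68 and 9.80 FPKM (-0.50, adjusted p = 0.00844), and the VCP cofactor UFD1 changed by -0.26 (adjusted p = 0.0302). Of 12 other signalling genes, none rose (3 of the 12 had an unadjusted limma p under 0.05 in either direction) and 2 fell, MBTPS2, the site-2 protease that releases ATF6, by 0.29 on the log2 scale (-0.29, adjusted p = 0.0368), and TRIB3, a pseudokinase induced downstream of ATF4, from 63.6 and 58.4 FPKM to 53.1 and 49.6 FPKM (-0.24, adjusted p = 0.0466).

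Of 25 other genes of entry, signal cleavage and N-glycosylation, 6 rose and 2 fell, 32.0% called beside 20.9% of all genes tested. Most of these 25 had a mean over 5 FPKM. With a filter at that level 2210 of 7609 genes were called, a larger share than 20.9%, so the excess is not read as a result. The 2 subunits of the signal recognition particle receptor, which docks ribosomes at the ER, moved in opposite directions. SRPRA, the subunit that binds the particle, was at 47.2 and 43.4 FPKM in the controls and at 74.0 and 75.01 FPKM in the knockdown (log2 fold change 0.71, limma adjusted p = 0.00145), and its membrane anchor SRPRB was at 22.8 and 19.9 FPKM against 14.8 and 15.04 FPKM (-0.49, adjusted p = 0.00817). DDOST, a subunit of the oligosaccharyltransferase, rose by 0.40 (adjusted p = 0.0115), and the translocon-associated TRAM1 changed by -0.24 (adjusted p = 0.0481).

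Of the 14 called pathway genes named above, SRPRA, SRPRB, ERP29 and EDEM3 stayed called with each library left out in turn. PDIA5, MBTPS2 and TRAM1 were called in none of the 4 fits (log2 fold changes of 0.25 to 0.29, -0.31 to -0.27 and -0.30 to -0.17). QSOX1 lost its call without knockdown 2, and DDOST and LMAN1 without either knockdown library. UFD1, TRIB3 and HERPUD2 were called only without control 2, and TMUB1 only without control 1. The direction was the same in all of these fits. Without the filter on low values, where 882 genes were called in place of 2288, SRPRA, SRPRB, ERP29 and LMAN1 stayed called. The rest of the 14 were then not called, EDEM3 among them.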

How the data were processed

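Per the labels, RNA was taken up in Trizol and sequenced from TruSeq libraries. The authors mapped reads with HISAT (HISAT2 2.0.5 on hg38 in the submitters' processing notes) and deposited FPKM per RefSeq transcript, while the quantifier and annotation were not given in the sources used here. Depth was unknown. Of 29265 entries, 183 without values and 164 without a symbol (0.250% of FPKM) were left out, and 28918 were summed to 16504 symbols. Pearson's r of log2(FPKM + 1) was 0.994 between controls, 0.993 between knockdowns and 0.983 to 0.985 across groups. Genes whose mean reached 1 FPKM were compared on log2(FPKM + 1) in limma 3.58.1 (R 4.3.3, empirical Bayes with a mean trend, 2-sided, Benjamini-Hochberg over all 10968 genes), tested on simulated data. "Rose", "fell" and "called" mean an adjusted p under 0.05.

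The named genes were the 38 members, CEBPG and, from each further pathway list, the 2 highest and 2 lowest called log2 fold changes. ATF4, DDIT3, CHAC1 and PPP1R15A were added after their values were seen. Members and lists were chosen with earlier results of these data known. Alternatives were pseudocount, filter, scaling, moderation, replicate block, transcripts and leaving out each library. Gene positions are from GENCODE 44 (GRCh38) and promoters from RefSeq. WFS1 and protein sequences were not analysed here. A further erythroid marker, beside the 11 examined, is not reported here.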

Additional observations from a re-analysis of the deposited data

How the results depend on the processing

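The unknown depth limits what low genes can show, and 2 libraries a group limit every call. No setting changed the direction of any of the 8 called genes, all of which stayed called with a pseudocount of 0.1 and under both rescalings. SEC62 and DERL2 also stayed called without the filter on low values, and a filter of 5 FPKM removed DERL2 and gave 7 genes called higher, with ATF6B and HERPUD1 added. The 5 genes called higher became 9 with each library scaled to 1 sum, 2 without a trend in the moderation and 0 without a filter on low values (limma, 8 at an unadjusted p under 0.05), where 882 genes were called in place of 2288. With transcripts in place of genes limma called 25 in all and 0 of the genes described here in either direction (8 higher and 4 lower at an unadjusted p under 0.05), and CEBPG was at -1.15 with an adjusted p of 0.0587. Leaving out each library gave 809 to 1931 calls, with 0 to 5 of the genes described here higher and 2 to 3 lower, and a median of 0.033 to 0.108. The calls were 809 without knockdown 1 and 865 without knockdown 2, with 1 gene higher in each case, and 0 higher without control 2. The cause was not tested.

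Replicate numbers were not stated to pair the libraries. With the replicate number as a block, 3440 of all 10968 genes were called in place of 2288. Of the genes described here, 10 were then called higher (PDIA6, HERPUD1, ATF6B, SEC61G and SSR4 in addition) and the same 3 lower. Calls thus increased among all genes too, and the larger count is not a result about these genes. The deviations of same-numbered libraries correlated at 0.101.

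The sign of 9 genes that were not called turned under some settings. By the median ratio the log2 fold changes were -0.0051 for DNAJB9, -0.0058 for VCP and -0.0048 for SEC61A1, and with 1 sum -0.0082, -0.0093 and -0.0083. Transcripts gave -0.19 for HYOU1 and 0.0053 for SEL1L. Over the leave-one-out fits the ranges were -0.17 to 0.19 for DNAJB9, -0.11 to 0.11 for SEL1L, -0.018 to 0.080 for DNAJC3, -0.090 to 0.022 for DERL1, -0.038 to 0.063 for VCP, -0.021 to 0.048 for SEC61A1, -0.062 to 0.12 for SSR2 and -0.17 to 0.057 for EDEM1. The spliced share of XBP1 was not run.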
